A study of Homo sapiens with 6 samples.

Results

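Integrins are adhesion receptors made of an alpha and a beta subunit, each of which crosses the plasma membrane. Outside the cell the pair binds matrix proteins such as laminin, collagen and fibronectin, and inside it is coupled by talin, kindlin and plectin to the actin or keratin cytoskeleton. In epithelial cells of the gut, laminin and collagen receptors hold the cell to the basement membrane, and receptors built on ITGAV bind vitronectin or release TGF-beta from its latent form.

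The members described here were 10 subunits chosen by name as those of epithelial cells, 5 alpha (ITGA2, ITGA3, ITGA5, ITGA6 and ITGAV) and 5 beta (ITGB1, ITGB4, ITGB5, ITGB6 and ITGB8), out of 58938 entries of the deposited gene table. All 10 had a row. Of these, 8 reached a mean of 1 FPKM (fragments per kilobase of gene length, scaled for each library) and were tested, among 13036 genes tested in all, while ITGB6 and ITGB8 lay below that level.

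The libraries came from HCT116, an established human colorectal cancer line. In 3 libraries the cells carried a plasmid that overexpresses MST3, a serine/threonine kinase encoded by STK24, and in 3 libraries they had received a vector. Plasmids were delivered by lipofection at 60% density, with the medium changed after 6 hours and RNA taken after 30 hours. The cells are 1 cell line after transient transfection of a population, in which cells that took up plasmid and cells that did not are read together, so fewer cells that express a gene and less RNA per cell cannot be told apart. No label says whether the replicates were grown and transfected separately, and the p-values therefore reflect library-to-library spread that may be technical.

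STK24 itself had 63.7, 72.2 and 76.0 FPKM in the MST3 libraries, against 17.1, 17.4 and 17.4 FPKM in the vector libraries. The log2 difference was 1.97 (SE 0.092), with an adjusted p = 0.000998 by limma. The libraries held 15289213 to 17209736 recovered reads with MST3 and 17296201 to 17708029 with vector. The 8 epithelial markers checked were all tested and summed to 1668 to 2096 FPKM with MST3 and 1763 to 1814 FPKM with vector, most of it from KRT19. By the log2 difference 5 were higher and 3 lower, none called, and the lower were CDH1 (E-cadherin, -0.26), ESRP1 (-0.21) and KRT18 (-0.09). CDH1 averaged 30.4 ± 4.74 FPKM with MST3 and 36.4 ± 1.47 FPKM with vector (SD, n = 3 each), with groups that overlapped and a difference close in size to that of ITGA2, and its part in the integrin values was not tested. Markers of other cells were near 0, with sums of at most 0.531 and 0.692 FPKM for 6 leukocyte markers and 0.524 and 0.425 FPKM for 6 endothelial markers, in MST3 and vector libraries. Among 6 fibroblast markers COL1A1 stood at 4.35 and 4.16 FPKM, and no other exceeded 0.0817 FPKM in any library.

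Stretches of coding sequence are shown for 4 subunits chosen by their values, since base composition ran along with the division of the members in MST3 replicate 3. Each line gives the middle 60 bases of the longest coding exon in the GENCODE 29 transcript with the longest coding part, 5′ to 3′ on the gene's strand, with G and C in capitals. ITGA2 and ITGA6 were lower in every MST3 library than in any vector library, and ITGB4 and ITGB5 were the subunits that stood highest in MST3 replicate 3 relative to vector. GC made up 42.2% of the whole coding sequence of ITGA2, 44.7% of ITGA6, 63.3% of ITGB4 and 55.8% of ITGB5. In the stretches shown it made up 41.7, 50, 61.7 and 70% in that order, so those of ITGA6 and ITGB5 are richer than the whole. Among stretches not shown, that of ITGA3 held 51.7% (60.1% in its whole coding sequence) and that of ITGB1 36.7% (41.2%). The stretches lie in exon 14 of ITGA2 (chr5:53064984-53065043, plus strand), exon 4 of ITGA6 (chr2:172469223-172469282, plus strand), exon 8 of ITGB4 (chr17:75730343-75730402, plus strand) and exon 10 of ITGB5 (chr3:124796573-124796632, minus strand), on GRCh38.
ITGA2: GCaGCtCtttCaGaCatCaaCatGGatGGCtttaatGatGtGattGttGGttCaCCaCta
ITGA6: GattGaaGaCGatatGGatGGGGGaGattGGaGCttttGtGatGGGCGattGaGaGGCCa
ITGB4: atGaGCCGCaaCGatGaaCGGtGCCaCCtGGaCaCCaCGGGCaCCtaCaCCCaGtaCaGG
ITGB5: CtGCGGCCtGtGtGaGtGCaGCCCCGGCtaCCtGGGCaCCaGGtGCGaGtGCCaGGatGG

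HCT116 cells carried high levels of the laminin and collagen receptor mRNAs and only traces of ITGB6 and ITGB8. Over the 6 libraries the highest mean levels were 115 FPKM for ITGB4, the laminin receptor subunit whose long tail binds plectin in hemidesmosomes, and 107 FPKM for ITGB1, the partner shared by most alpha subunits. These neighbours were not separated, with ITGB4 above ITGB1 in 3 of 6 libraries. ITGA3, the alpha subunit of a laminin receptor with ITGB1, followed at 71.2 FPKM. ITGA6, which pairs with ITGB4 or ITGB1 to bind laminin, stood at 38.8 FPKM, and ITGA2, the collagen receptor subunit, at 28.1 FPKM. ITGB5, which with ITGAV binds vitronectin, had 18.4 FPKM, the fibronectin receptor subunit ITGA5 had 16.9 FPKM and ITGAV had 13.0 FPKM. From ITGB1 down, each of these subunits lay above the next in all 6 libraries, although the ranges over libraries overlapped for ITGA6 and ITGA2, for ITGB5 and ITGA5, and for ITGA5 and ITGAV. ITGB8 at 0.478 FPKM and ITGB6 at 0.0288 FPKM were far below.

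**Figure D1:**
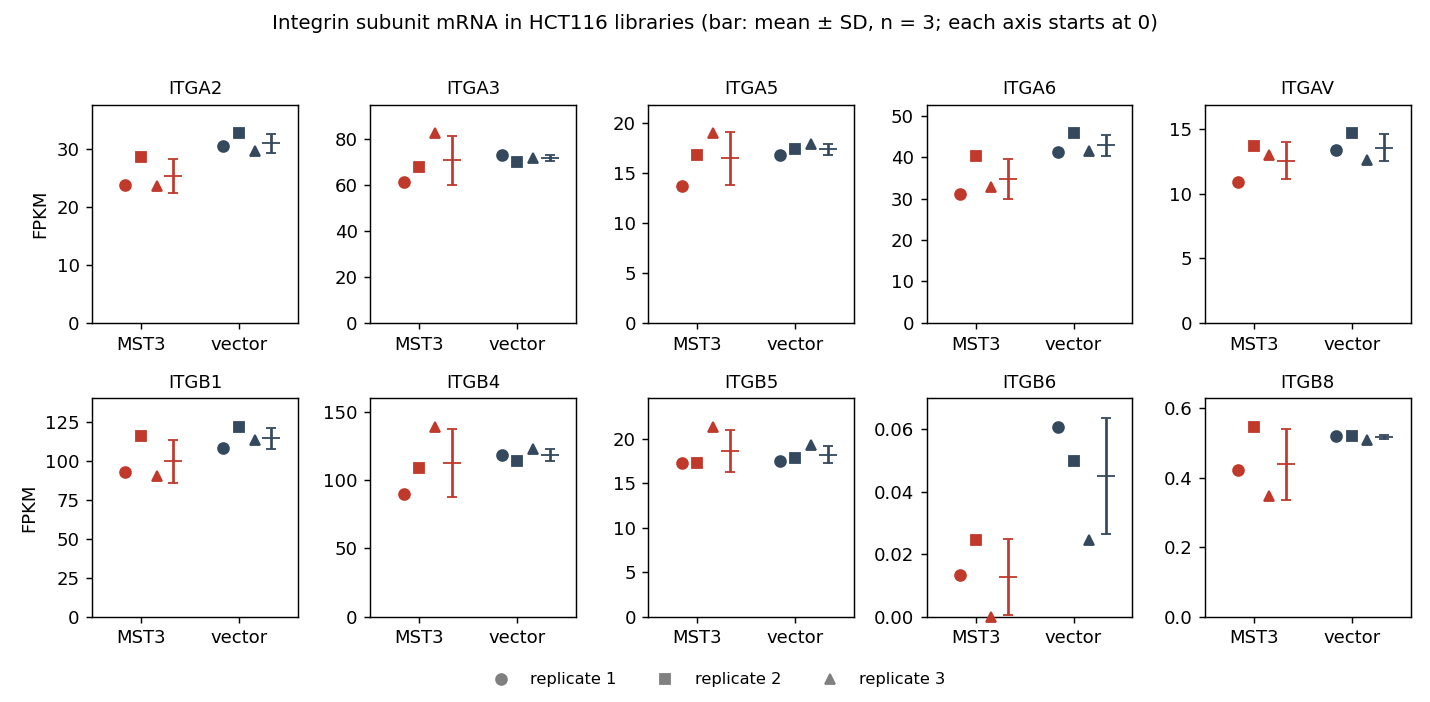
FPKM of each of the 10 subunits in the 3 MST3 libraries (left, red) and the 3 vector libraries (right, blue), with marker shape for the replicate number and bars for mean ± SD (n = 3). Every axis starts at 0 and has its own scale. For ITGA2 and ITGA6 all red points lie below all blue points, and for the other 8 subunits the groups meet or overlap.

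Whether MST3 changes the mRNA of these receptors was asked by the comparison of MST3 with vector. No member passed limma over all genes, with adjusted p-values of 0.719 to 0.947 for the 8 tested, and STK24 was the only gene of the 13036 that did (0.00767% of all genes tested). At an unadjusted p under 0.05 there were 2 members, ITGA2 and ITGA6, both lower, where 1.86% of all genes tested were lower at that level and 5.38% differed at it in either direction. In 7 of 8 members the MST3 mean was lower on the log2(FPKM + 1) scale, where 53.4% of all genes tested were lower. The median difference was -0.10 over the members and -0.01 over all genes tested. Among genes tested with a mean of at least 10 FPKM, as all 8 members had, 56.6% were lower and the median was -0.027. The count of 7 depended on MST3 replicate 1, without which it was 4 and the median difference was 0.010.

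ITGA6 (ENSG00000091409; chromosome 2, 172427354 to 172506282, plus strand, GRCh38) had 31.1, 40.2 and 32.8 FPKM in the MST3 libraries, against 41.3, 45.8 and 41.4 FPKM in the vector libraries. The groups did not overlap, and MST3 replicate 2 came nearest to the vector libraries. The means were 34.7 ± 4.84 FPKM with MST3 and 42.8 ± 2.57 FPKM with vector (SD, n = 3 each), a ratio of 0.811. The log2 difference was -0.30 (SE 0.12, 95% interval -0.57 to -0.03), with an unadjusted p = 0.0332 and an adjusted p = 0.719 by limma. The two-sided exact permutation p was 0.1, which is the minimum for groups of 3 and 3.

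ITGA2 (ENSG00000164171; chromosome 5, 52989326 to 53094779, plus strand) had 23.7, 28.6 and 23.5 FPKM in the MST3 libraries, against 30.4, 32.7 and 29.6 FPKM in the vector libraries. Again all 3 MST3 values were lower than any vector value, with MST3 replicate 2 nearest. The means were 25.3 ± 2.90 FPKM with MST3 and 30.9 ± 1.59 FPKM with vector (SD, n = 3 each), a ratio of 0.819. The log2 difference was -0.28 (SE 0.10, 95% interval -0.52 to -0.04), with an unadjusted p = 0.0268 and an adjusted p = 0.719 by limma, and the exact permutation p = 0.1. Groups without overlap on the lower side were seen for 2 of 8 members and for 6.7% of all genes tested. Without MST3 replicate 3 the count was 6 of 8, when 14.5% of all genes tested met it. Leaving out a library cannot make groups that are apart overlap. That ITGA2 and ITGA6 stayed apart in every leave-out was therefore fixed in advance, and says nothing of how stable their differences are. For the same reason the share of all genes tested could only stay or rise. The unadjusted p of ITGA2 and ITGA6 stayed under 0.05 without MST3 replicate 2, and exceeded 0.05 in each of the other 5 leave-outs. Without MST3 replicate 2 that of ITGB1 was under 0.05 too. In that fit 2554 of the 13036 genes tested were under 0.05, against 701 with all libraries.

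ITGB1 (ENSG00000150093; chromosome 10, 32900319 to 33005792, minus strand) had 93.1, 116 and 90.7 FPKM in the MST3 libraries, against 109, 122 and 114 FPKM in the vector libraries. MST3 replicates 1 and 3 lay below every vector library and replicate 2 lay among them. The ratio of means was 0.870 and the log2 difference -0.21 (95% interval -0.48 to 0.07; adjusted p = 0.719 by limma). ITGAV (ENSG00000138448; chromosome 2, 186590065 to 186680901, plus strand) had 10.9, 13.7 and 13.0 FPKM with MST3 and 13.3, 14.7 and 12.6 FPKM with vector. Its groups overlapped, and the interval of the log2 difference ran from -0.35 to 0.14.

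ITGB4 (ENSG00000132470; chromosome 17, 75721328 to 75757818, plus strand) had 89.9, 108 and 139 FPKM in the MST3 libraries, against 118, 114 and 123 FPKM in the vector libraries. MST3 replicates 1 and 2 were below all vector libraries and replicate 3 was above all of them. The means of 112 ± 24.7 FPKM with MST3 and 118 ± 4.33 FPKM with vector (SD, n = 3 each) differed by less than the MST3 spread, with a log2 interval of -0.46 to 0.27. ITGA3 (ENSG00000005884; chromosome 17, 50055968 to 50090481, plus strand) followed the same order, with 61.5, 68.1 and 82.6 FPKM with MST3 and 72.9, 70.2 and 71.8 FPKM with vector. Its interval ran from -0.31 to 0.25.

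ITGA5 (ENSG00000161638; chromosome 12, 54395261 to 54419460, minus strand) had 13.7, 16.8 and 19.0 FPKM with MST3 and 16.8, 17.4 and 17.9 FPKM with vector, so that replicate 1 was lowest and replicate 3 highest of all 6. Its interval ran from -0.37 to 0.20. ITGB5 (ENSG00000082781; chromosome 3, 124761948 to 124901418, minus strand) had 17.3, 17.2 and 21.3 FPKM with MST3 and 17.4, 17.8 and 19.3 FPKM with vector. It was the only member with a higher MST3 mean on the log2 scale, by 0.03 (95% interval -0.22 to 0.27), a sign that turned without MST3 replicate 3 (-0.070) or vector replicate 1 (-0.00041). For the 8 tested members the intervals leave out a fall below 0.673-fold and a rise above 1.21-fold on the FPKM + 1 scale.

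**Figure D2:**
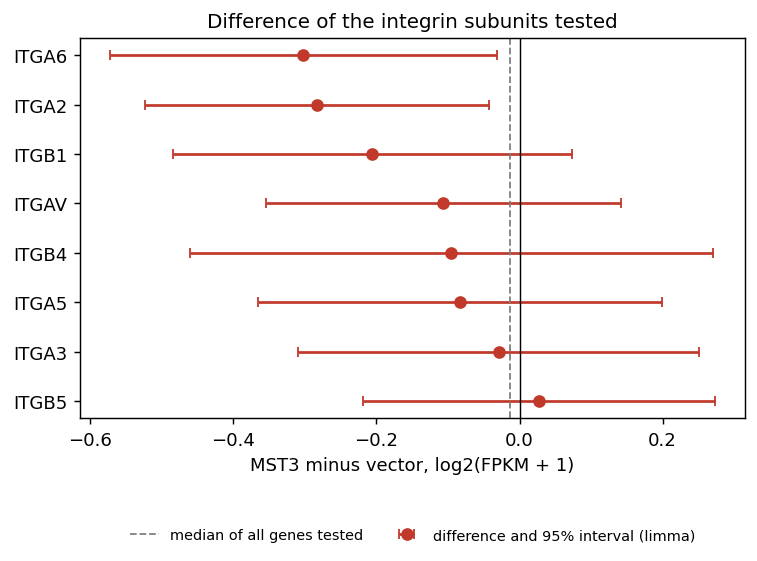
Difference of MST3 minus vector on the log2(FPKM + 1) scale for the 8 tested subunits, with 95% intervals from limma (n = 3 libraries per group). The dashed line is the median of all genes tested, and the intervals of ITGA6 and ITGA2 are the 2 that do not reach 0.

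ITGB6 and ITGB8, which can pair with ITGAV in receptors for latent TGF-beta, were scarce. ITGB8 (ENSG00000105855; chromosome 7, 20330702 to 20415754, plus strand) had 0.422, 0.547 and 0.346 FPKM with MST3 and 0.522, 0.520 and 0.510 FPKM with vector. These rest on 102, 144 and 90 reads with MST3 and 139, 135 and 135 reads with vector. MST3 replicate 2 was the highest of the 6 libraries and replicates 1 and 3 the lowest. With the filter lowered to a mean of 0.1 FPKM, its log2 difference was -0.08 (95% interval -0.32 to 0.16). ITGB6 (ENSG00000115221; chromosome 2, 160099666 to 160200313, minus strand) was represented by 1, 2 and 0 reads in the MST3 libraries, against 5, 4 and 2 reads in the vector libraries. The ratio of read rates was 0.288 with an exact 95% interval of 0.0516 to 1.09, which covers counting error only.

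The MST3 libraries differed among themselves more than the vector libraries did in all 8 tested members. The median coefficient of variation of the members was 14.0% with MST3 and 5.2% with vector, and counting error was at most 2.65% in any library. A larger SD with MST3 was general, in 77.2% of all genes tested and in 87.6% of those with a mean of at least 10 FPKM. MST3 replicate 1 lay below the vector mean in 8 of 8 members (median log2 deviation -0.31, against -0.03 for all genes tested). MST3 replicate 2 lay below it in 6 of 8 members, with a median deviation of -0.07. MST3 replicate 3 parted the members, 4 above and 4 below.

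That division ran along GC content, whose part in the result was not tested. The members that MST3 replicate 3 held above the vector mean were ITGB4, ITGA3, ITGB5 and ITGA5, with 54.3 to 63.7% GC in their longest transcript, and each stood above every vector library. The members below it were ITGA2, ITGA6, ITGB1 and ITGAV, with 38.3 to 42.9% GC. The median deviation of MST3 replicate 3 was 0.21 for the GC-rich 4 and -0.35 for the GC-poor 4. All tested genes in the same GC ranges had medians of 0.23 (3302 genes) and -0.17 (2477 genes) in that library. Pearson's r between GC content and the deviation of MST3 replicate 3 was 0.86 over the 8 members and 0.58 over 12933 tested genes, a description over genes that share a library. In the vector libraries r over the members was 0.53, -0.97 and 0.79 for replicates 1, 2 and 3, at deviations within 0.11, and 0.16, -0.28 and 0.14 over all tested genes. These deviations are from the vector libraries' own mean, so opposite signs among them are partly built in. MST3 replicates 1 and 2 had r of 0.25 and -0.55 over the members, and 0.17 and -0.13 over all tested genes. In MST3 replicate 1 the GC-rich and GC-poor members were both low, with medians of -0.27 and -0.33, where all tested genes in those GC ranges had 0.06 and -0.10. Over all genes tested its deviation ran against log2 gene length (r of -0.29), where the other libraries had -0.050 to 0.070. Over the 8 members, of 6011 to 9802 bp, that r was 0.10. This library also had the fewest recovered reads and the most genes with a read, 27442 against 25099 to 25501 in the others. The part of gene length in its low values was not tested.

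**Figure D3:**
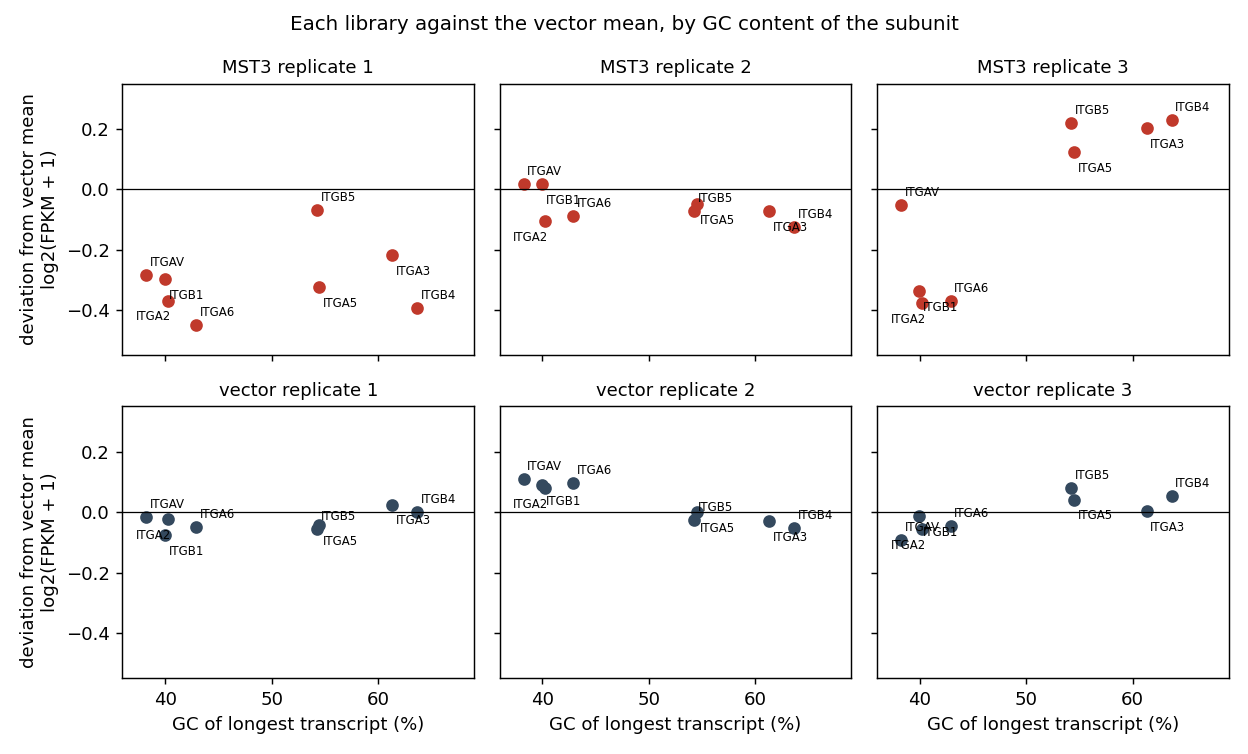
Deviation of each library from the mean of the 3 vector libraries on the log2(FPKM + 1) scale (y) against GC content of the longest transcript (x), 1 point per tested subunit, MST3 libraries above and vector libraries below. In MST3 replicate 3 the 4 subunits over 50% GC lie above 0 and the 4 under 50% lie below it, while in MST3 replicate 1 all 8 lie below 0.

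Each library's trend in GC content and gene length was then removed, an alternative chosen after seeing the data. The log2 difference was -0.21 for ITGA6 and -0.18 for ITGA2. The unadjusted p-values were 0.0213 and 0.0110, with an adjusted p = 0.662 for both by limma. In this setting 898 of 12933 genes tested had an unadjusted p under 0.05, against 701 of 13036 without it. ITGB1 moved to -0.12, ITGAV to -0.01 and ITGB4 to -0.20, and again 7 of 8 members were lower.

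Because FPKM is per length, subunits can be set side by side as possible partners within a library. The length is the deposited gene length, which may differ from that of the transcripts in use. Shares and ratios between subunits are therefore not ratios of molecules. Summed alpha mRNA was 141, 167 and 171 FPKM in the MST3 libraries, against 175, 181 and 173 FPKM in the vector libraries, without overlap (exact permutation p = 0.1, the smallest possible). Summed beta mRNA was 201, 242 and 251 FPKM with MST3 and 245, 255 and 256 FPKM with vector, where the groups overlapped. ITGA3 supplied 44.2 ± 3.85% of alpha mRNA with MST3 and 40.7 ± 1.58% with vector, ITGA6 supplied 21.8 ± 2.42% and 24.3 ± 0.923%, and ITGA2 supplied 15.9 ± 1.86% and 17.5 ± 0.506% (SD, n = 3 each). ITGB4 and ITGB1 made up 48.3 ± 6.06% and 43.5 ± 6.42% of beta mRNA with MST3, and 47.0 ± 1.92% and 45.6 ± 2.09% with vector. The largest single departure was MST3 replicate 3, with 55.3% ITGB4 and 36.1% ITGB1.

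**Figure D4:**
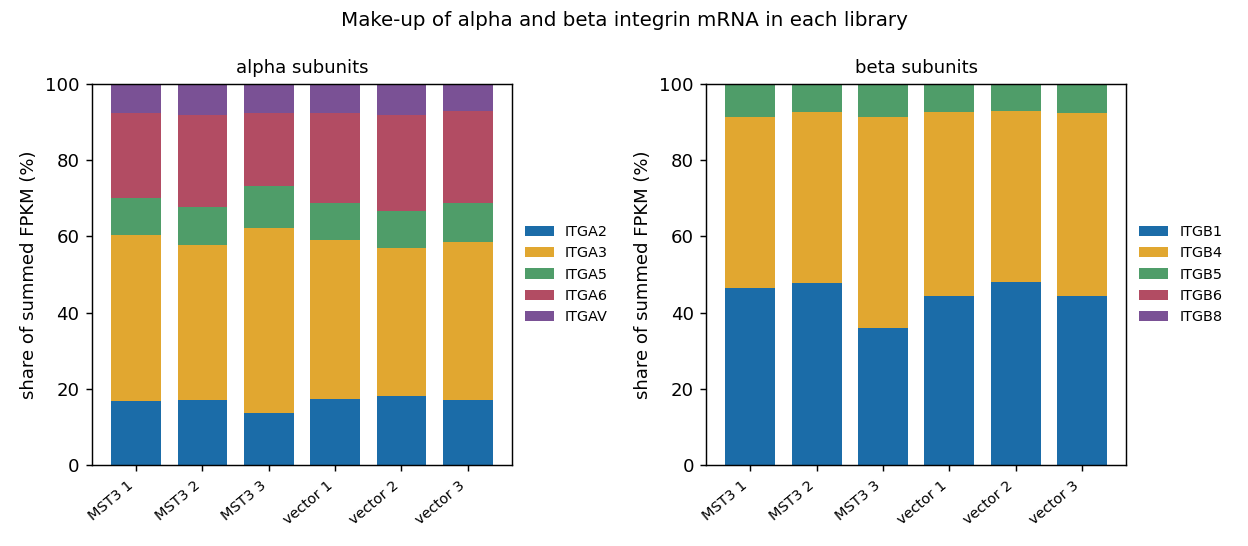
Share of each subunit in the summed FPKM of the 5 alpha subunits (left) and of the 5 beta subunits (right), 1 bar per library, MST3 libraries first. ITGB6 and ITGB8 are too scarce to be seen, and the make-up of MST3 replicate 3 stands apart with more ITGB4 and ITGA3.

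Ratios of partner mRNAs within a library were compared for 9 pairs, of which 8 could be tested because ITGB6 had no read in 1 library. ITGA6 over ITGB1 was 0.334, 0.347 and 0.362 with MST3 and 0.380, 0.375 and 0.364 with vector. ITGA2 over ITGB1 was 0.254, 0.247 and 0.259 with MST3 and 0.279, 0.267 and 0.261 with vector. In both pairs the groups did not overlap, with log2 differences of -0.10 and -0.09, an exact permutation p = 0.1 (the smallest possible) and an adjusted p = 0.4 over the 8 pairs. As a ratio of FPKM + 1 the exact p was 0.1 for ITGA6 and 0.2 for ITGA2 over ITGB1. ITGA6 over ITGB4, the hemidesmosome receptor, was 0.346, 0.371 and 0.237 with MST3 and 0.349, 0.402 and 0.337 with vector. The groups of ITGA6 over ITGB4 overlapped (exact permutation p = 0.5, adjusted p = 0.686). This pair sets a GC-poor over a GC-rich mRNA, and the part of GC content in its low value in MST3 replicate 3 was not tested. The ratio of ITGAV to ITGB5 was 0.632, 0.793 and 0.610 with MST3 and 0.765, 0.823 and 0.654 with vector (exact p = 0.4, adjusted p = 0.686).

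Reads of genes that overlap a member on the other strand cannot be told from its own where the strand setting is not given. GALK1 overlaps ITGB4 on the minus strand and had 14.8 FPKM with MST3 and 12.0 FPKM with vector, at most 867 reads where ITGB4 had at least 9695. AC078883.1 overlaps ITGA6 and had at most 106 reads, where ITGA6 had at least 3238. The other overlapping genes had at most 17 reads.

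Promoter sequence was matched for 8 of 10 members in RefSeq on GRCh38.p14, all but ITGA3 and ITGB4. The 250 bases before the start are shown for the 3 members with the lowest differences (ITGA6, ITGA2 and ITGB1) and for ITGB5, the member with a higher MST3 mean. Capitals mark GGGCGG (the GC box of SP1) and GGAATG (a core bound by TEAD factors, through which YAP acts), and TGANTCA (the AP-1 motif) was searched too, all on both strands. GGGCGG occurred 4 times for ITGA2, 3 times for ITGB1, 2 times each for ITGB5 and ITGB8 and once for ITGA5, 5 of 8 members, and in 42.6% of 35116 promoters. GGAATG occurred once in ITGB1 and once in ITGA5, and in 11.9% of all promoters. TGANTCA was found in none of the 8 and in 6.57% of all. The 4 windows are chr5:52989102-52989351 (plus strand), chr2:172427086-172427335 (plus strand), chr10:32958231-32958480 (minus strand) and chr3:124901419-124901668 (minus strand), written 5′ to 3′.
ITGA2: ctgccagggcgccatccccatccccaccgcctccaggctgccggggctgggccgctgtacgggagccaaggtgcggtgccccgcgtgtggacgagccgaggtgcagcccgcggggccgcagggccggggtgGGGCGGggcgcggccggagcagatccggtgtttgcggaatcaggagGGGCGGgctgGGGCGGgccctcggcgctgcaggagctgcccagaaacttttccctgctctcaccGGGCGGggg
ITGA6: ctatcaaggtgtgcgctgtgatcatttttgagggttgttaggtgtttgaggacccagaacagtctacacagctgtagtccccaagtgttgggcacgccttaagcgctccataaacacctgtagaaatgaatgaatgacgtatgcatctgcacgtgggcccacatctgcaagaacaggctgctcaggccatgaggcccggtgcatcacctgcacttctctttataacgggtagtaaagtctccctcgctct
ITGB1: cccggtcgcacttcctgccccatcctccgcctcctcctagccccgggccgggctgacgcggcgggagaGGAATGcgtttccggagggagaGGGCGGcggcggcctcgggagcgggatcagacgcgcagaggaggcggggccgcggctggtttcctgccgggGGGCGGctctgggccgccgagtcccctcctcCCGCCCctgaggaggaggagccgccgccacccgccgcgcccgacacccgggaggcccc
ITGB5: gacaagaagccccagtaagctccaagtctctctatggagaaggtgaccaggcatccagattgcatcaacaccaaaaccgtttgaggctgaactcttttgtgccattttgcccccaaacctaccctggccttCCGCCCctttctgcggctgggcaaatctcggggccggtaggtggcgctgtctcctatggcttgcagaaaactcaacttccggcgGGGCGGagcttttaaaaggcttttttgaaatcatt
Whether promoter GC runs with transcript GC cannot be told from these members, since the GC-rich mRNAs ITGA3 and ITGB4 have no window. The promoter windows of the GC-poor mRNAs ITGA2 and ITGB1 held 76.4 and 78.4% GC and that of ITGA6 50.8%. Those of ITGAV, ITGB8 and ITGB6, also GC-poor mRNAs, held 70.8, 71.2 and 30%. The promoters of the GC-rich mRNAs ITGB5 and ITGA5 held 52.8 and 70%, against a median of 58% over all promoters.

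The other 16 subunits, which mark leukocytes, platelets, muscle and other tissues, were low. Only ITGA7, a laminin receptor of muscle, and ITGAE, the partner of ITGB7 on intraepithelial lymphocytes, reached 1 FPKM. ITGA7 had 3.85, 3.39 and 3.98 FPKM with MST3 and 3.44, 3.11 and 3.72 FPKM with vector, and ITGAE had 2.34, 1.63 and 1.89 FPKM with MST3 and 1.85, 1.62 and 1.77 FPKM with vector. Both groups of values overlapped, and the adjusted p-values were 0.753 and 0.804 by limma. ITGB3, which with ITGAV forms the classical vitronectin receptor, had 34 reads in the 3 MST3 libraries and 31 in the 3 vector libraries. ITGB2, the beta subunit of leukocytes, had 34 reads with MST3 and 10 with vector, at most 0.129 FPKM. ITGA9 had 260 reads with MST3 and 299 with vector, at 0.629, 0.598 and 0.641 FPKM with MST3 and 0.687, 0.670 and 0.720 FPKM with vector. The groups of ITGB2 and ITGA9 did not overlap, ITGB2 higher and ITGA9 lower with MST3, and both, with ITGB3, were chosen for mention after their values were seen. Among the genes tested, which include neither, 5.19% were higher and 6.7% lower without overlap.

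Genes around the integrins were read from 6 further lists with 82 tested genes. None passed limma over all genes in either direction, and the smallest adjusted p was 0.719. Among genes that switch integrins on or off, 3 of 12 were higher and 9 lower, with a median log2 difference of -0.10, which was 0.0094 without MST3 replicate 1. The kindlin FERMT1, which binds the beta tail, had 7.53, 9.53 and 9.23 FPKM with MST3 and 9.54, 10.6 and 10.6 FPKM with vector. FERMT2, the kindlin of focal adhesions, averaged 6.15 and 7.17 FPKM in MST3 and vector libraries. TLN1, the talin that links the beta tail to actin, had 27.3, 38.9 and 46.0 FPKM with MST3 and 39.3, 41.3 and 41.1 FPKM with vector, the same order of MST3 replicates as ITGB4. TLN2 averaged 1.33 and 1.63 FPKM. FERMT1 and TLN2, 2 of 12, were lower without overlap, against 6.7% of all genes tested. The actin crosslinker FLNA, which competes with talin, averaged 152 FPKM with MST3 and 157 FPKM with vector, and the inactivator SHARPIN 10.8 FPKM with MST3 and 9.18 FPKM with vector.

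Among focal adhesion adaptors and kinases 8 of 24 were higher and 16 lower, with a median of -0.06 that became 0.0076 (12 lower) without MST3 replicate 1. VCL, the talin-binding vinculin, had 28.6, 37.6 and 34.8 FPKM with MST3 and 37.8, 40.9 and 38.6 FPKM with vector. PARVA, a partner of integrin-linked kinase, averaged 1.92 and 2.33 FPKM in MST3 and vector libraries, ARHGEF7 7.64 and 8.48 FPKM and the adaptor CRKL 50.3 and 54.8 FPKM. The groups of these 4 of 24 did not overlap, all on the lower side, where 6.7% of all genes tested were apart. The Src family kinase FYN averaged 4.13 and 4.75 FPKM, ACTN4 117 FPKM in both groups and ZYX 63.7 and 65.9 FPKM.

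Of the tetraspanins and other membrane partners 8 of 12 were higher, with a median of 0.09, and 2 had an unadjusted p under 0.05, CD63 and SDC1, both higher, where 3.51% of all genes tested were higher at that level. The median was 0.13 without MST3 replicate 1, 0.15 without replicate 2 and 0.050 without replicate 3. The 4 that were lower, CD47 (-0.17), SDC4 (-0.13), CD81 (-0.05) and CD9 (-0.02), are named after their values were seen. The difference between this list and the integrins was not tested. CD63 had 77.7, 54.6 and 61.7 FPKM with MST3 and 47.5, 43.9 and 49.6 FPKM with vector, a log2 difference of 0.44 with an unadjusted p = 0.0146 and an adjusted p = 0.719 by limma. CD151, the tetraspanin that binds the laminin receptors directly, had 47.2, 33.5 and 49.6 FPKM with MST3 and 33.6, 30.7 and 37.1 FPKM with vector. CD151 overlapped between groups through MST3 replicate 2. In this list 1 of 12 genes, CD63, was higher without overlap and 1 was lower. Of all genes tested, 5.19% were higher and 6.7% lower without overlap. CD82 averaged 3.66 and 2.43 FPKM in MST3 and vector libraries, the syndecan SDC1 22.4 and 17.3 FPKM, SDC4 98.2 and 107 FPKM, BSG 184 and 172 FPKM and EPCAM 88.4 and 87.2 FPKM. With GC and length trends removed the median of this list was 0.023. In that setting the integrin activators and inactivators had -0.13, the focal adhesion adaptors and kinases -0.063 and the matrix ligands -0.085. The hemidesmosome partners had -0.039 and the traffic genes -0.0028.

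Hemidesmosome partners were split, 2 of 4 higher, with a median of -0.01. PLEC, the plectin that joins ITGB4 to keratins, had 78.7, 82.1 and 128 FPKM with MST3 and 93.7, 81.0 and 94.9 FPKM with vector, with the high value in MST3 replicate 3 as for ITGB4. DST averaged 9.17 and 10.1 FPKM, KRT8 366 and 345 FPKM and KRT18 216 and 230 FPKM in MST3 and vector libraries.

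Among matrix ligands 5 of 16 were higher and 11 lower, with a median of -0.11 (-0.06 without MST3 replicate 1) and 1 lower at an unadjusted p under 0.05, where 1.86% of all genes tested were. That 1 was FN1, fibronectin, the ligand of ITGA5 with ITGB1, at 3.71, 4.40 and 4.40 FPKM with MST3 and 4.97, 5.15 and 4.83 FPKM with vector (log2 difference -0.21, unadjusted p = 0.0389, adjusted p = 0.719 by limma). The laminin chains LAMB1 and LAMC1 averaged 13.8 and 23.1 FPKM with MST3 and 15.6 and 26.8 FPKM with vector, and SPP1 (osteopontin) 0.885 and 1.25 FPKM in MST3 and vector libraries. With FN1 these made 4 of 16 genes lower without overlap, against 6.7% of all genes tested. LAMB3, a chain of the hemidesmosome ligand, averaged 41.8 and 46.1 FPKM in MST3 and vector libraries. TGFB1, whose latent form binds receptors of ITGAV, had 33.6, 47.5 and 65.6 FPKM with MST3 and 51.7, 50.8 and 51.1 FPKM with vector, a spread among MST3 libraries on both sides of vector.

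Integrin traffic genes were even, 7 of 14 higher, with a median of -0.00. ARF6, a GTPase of recycling, had 45.6, 43.8 and 47.2 FPKM with MST3 and 39.9, 43.1 and 39.4 FPKM with vector, without overlap (adjusted p = 0.719 by limma). NUMB, an endocytic adaptor, averaged 7.17 and 7.93 FPKM in MST3 and vector libraries and was lower without overlap. ARF6 and NUMB made 1 of 14 genes apart on the higher side and 1 on the lower. Of all genes tested, 5.19% were apart on the higher side and 6.7% on the lower. RAB25, RAB11A and RAB11B averaged 38.4, 26.3 and 42.5 FPKM with MST3 and 41.0, 29.6 and 41.9 FPKM with vector, and ACAP1 2.67 and 2.20 FPKM in MST3 and vector libraries.

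**Figure D5:**
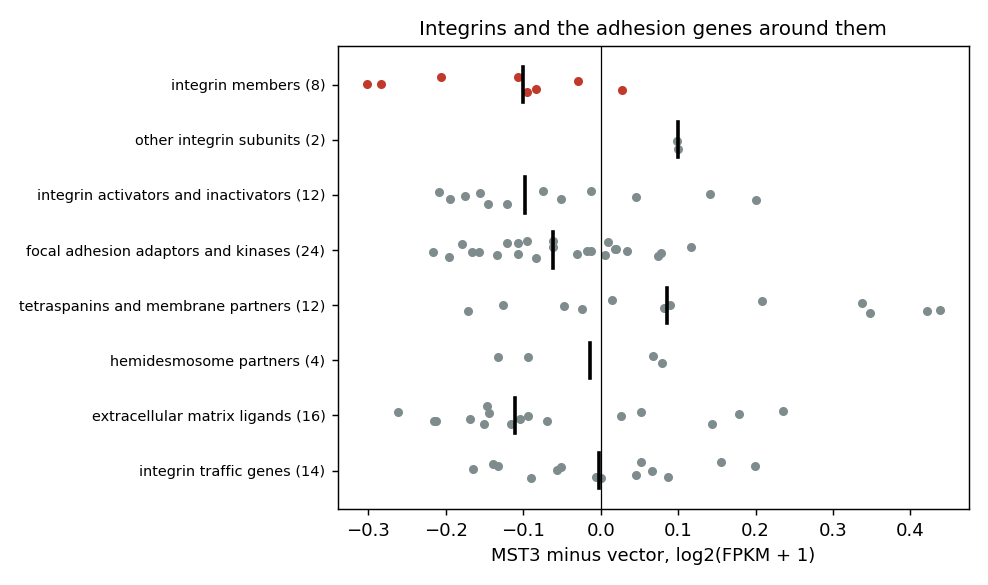
Difference of MST3 minus vector on the log2(FPKM + 1) scale for the tested genes of each list, 1 point per gene, with the list's median as a black bar and the number tested in brackets. The integrin members (red) have a median of -0.10 and the tetraspanins and membrane partners a median of 0.09, and no point shown passed the test over all genes.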

How the data were processed

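The authors deposited 1 table of FPKM values with a column per library and each gene's position and length. Per the submitters' processing notes, the tools included HISAT2, an aligner. How reads were counted, on which strand and on which build is unstated (not given in the sources used here). All 58735 Ensembl entries have the same position in GENCODE 29 (GRCh38). FPKM times gene length stepped evenly, within 0.01, in 100% of values, which gave the reads behind each value.

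log2(FPKM + 1) was tested with limma 3.58.1 in R 4.3.3 (variance trend on mean level), two-sided, for the 13036 genes whose mean reached 1 FPKM, with Benjamini-Hochberg adjustment over all of them and a threshold of 0.05. The fit was tested on simulated data. Partner ratios used an exact permutation test (scipy 1.17.1). The members and lists were chosen with earlier results of these data known. Named were all members, STK24, other subunits of at least 1 FPKM and, per list, the 4 smallest p and 3 highest means. A gene selected by this rule is not reported here. Alternatives covered pseudocount, filter, scaling, variance model, voom, the replicate number as a block, GC and length trends, and each library left out.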

Additional observations from a re-analysis of the deposited data

How the results depend on the processing

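Each group held 3 libraries, except that 1 group had 1 fewer in the fits with a library left out. Under all 17 alternatives limma called STK24 and none of the 8 tested members, and the members' adjusted p stayed at or above 0.213 (without MST3 replicate 2). ITGA2, ITGA6, ITGB1 and ITGAV were lower in all of them. Leaving out each library in turn gave 4 to 8 members lower in MST3, and log2 differences of -0.15 to 0.065 for ITGA3, -0.19 to 0.038 for ITGA5, -0.26 to 0.053 for ITGB4 and -0.070 to 0.076 for ITGB5. The sign of ITGB5 also turned with sample weights (-0.00021) and that of ITGA3 with voom (0.0028). Among partner ratios the leave-out ranges crossed 0 for ITGA3 over ITGB1 (-0.0056 to 0.31), ITGA5 over ITGB1 (-0.056 to 0.21), ITGAV over ITGB1 (-0.0033 to 0.14) and ITGAV over ITGB8 (-0.039 to 0.26), the last also as a ratio of FPKM + 1 (-0.027). The cause was not tested. The labels do not say whether replicate numbers pair the libraries. Correlations of same-numbered deviations were 0.016, 0.23 and 0.035, and not every library correlated best with its own number, so the numbers were not taken as pairs. With the replicate number as a block, 1 gene and 0 members were called, and 1338 genes had an unadjusted p under 0.05, against 701 without it. Among all genes tested that count was 298 to 2554 with a library left out. Read depth limits ITGB6. For ITGB8 the MST3 spread (coefficient of variation 23.1%) exceeded the counting error of its lowest library (10.5%), as it did for the 8 tested members.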
